A study of Mus musculus with 374 samples.

Results

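The Ikaros family was followed in single cells of 5 sorted mouse blood cell populations. The family was taken as 4 named genes, Ikzf1 (Ikaros), Ikzf2 (Helios), Ikzf3 (Aiolos) and Ikzf5 (Pegasus), and counts of 3 of them were used, among 19829 mouse genes with a row. Ikzf2 was not analysed here. Members were chosen by gene name, though earlier results of these data were known. All cells came from 1 female C57BL/6 mouse aged 10-13 weeks and were placed singly in the wells of 1 plate for CEL-seq2, a protocol that reads the 3′ end of each transcript and tags it with a unique molecular identifier (UMI). The bone marrow gave 44 B lymphocytes (B220+, low forward scatter), 96 granulocytes (Mac1+ Gr1+), 96 erythroblasts (Ter119+ CD44+, mid to high forward scatter) and 95 progenitor/stem cells (Lin- Kit+ Sca1+). The thymus gave 43 T lymphocytes (CD3+, low forward scatter), so organ and cell type cannot be told apart for T lymphocytes. No cell was treated. With 1 mouse, each population is 1 sample, and no test between populations was made. Every interval printed is an exact 95% interval for counting error only and leaves out the spread between cells and between mice.

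Ikaros proteins are zinc finger transcription factors. The N-terminal fingers of Ikaros, Helios and Aiolos bind DNA at sites that hold the core GGGAA. C-terminal fingers let members of the family pair with themselves or with each other. Ikzf1 is required for lymphocyte development, Ikzf3 acts in later B cell maturation, and Ikaros and Aiolos recruit chromatin-remodelling and deacetylase complexes such as NuRD.

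The 374 wells held 2241250 UMIs on mouse genes. Median depth per well was 3028.5 UMIs in B lymphocytes, 4347 in T lymphocytes, 3880 in granulocytes, 6113.5 in erythroblasts and 7959 in progenitor/stem cells. Levels are given as CPM (counts per 1e6), the UMIs of a gene summed over a population and scaled to all its UMIs on mouse genes. This total was itself uneven in make-up, since the noncoding RNA gene Gm42418 took 8.59% (erythroblasts) to 22.7% (B lymphocytes) of it and haemoglobin genes took 23.5% in erythroblasts. Each population was checked against the markers of its cell type, and each marker set reached at most 11.8% of its own population's summed level in any other population. Pax5, which defines B cells, had 0 UMIs in the 4 other populations but was also rare in B lymphocytes (2.27% of wells), so it checks little. B lymphocyte well A8 stood apart, with Gr1 fluorescence of 15209, 519 UMIs on granulocyte markers and 0 on B lymphocyte markers. Well B2 had CD3 fluorescence of 7905, but 36 UMIs on B lymphocyte markers and 0 on T lymphocyte markers. Neither well held a UMI of a family member, and without them the B lymphocyte levels were 567 CPM for Ikzf1, 155 for Ikzf3 and 46.6 for Ikzf5, against 538, 147 and 44.2 with them.

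The 3 genes lie on 2 chromosomes in GRCm38, by GENCODE M21. Ikzf1 (ENSMUSG00000018654) spans chr11:11685003-11772926 on the plus strand, and Ikzf3 (ENSMUSG00000018168) spans chr11:98464902-98546031 on the minus strand. Ikzf5 (ENSMUSG00000040167) spans chr7:131388652-131410521 on the minus strand. Its span overlaps Pstk on the opposite strand, which held 21 UMIs in all, and Fgfr2, which was not analysed here, as well as 2 other gene models with 3 and 5 UMIs. Use of strand in the counting was not given in the sources used here, so the Ikzf5 counts are uncertain to that extent. Genes overlapping Ikzf1 or Ikzf3 held at most 2 UMIs.

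The upstream windows of Ikzf1 are shown because it held most of the family's UMIs and is annotated with more than 1 start. RefSeq (GRCm38.p6) gave 2 entries for Ikzf1, and the 250 bases before each start are printed 5′ to 3′ on the plus strand. The first window is chr11:11685675-11685924 and the second is chr11:11689927-11690176. Capitals mark GGGAA, the core of Ikaros binding sites, read on either strand, so that TTCCC is a match on the minus strand.
Ikzf1 first start: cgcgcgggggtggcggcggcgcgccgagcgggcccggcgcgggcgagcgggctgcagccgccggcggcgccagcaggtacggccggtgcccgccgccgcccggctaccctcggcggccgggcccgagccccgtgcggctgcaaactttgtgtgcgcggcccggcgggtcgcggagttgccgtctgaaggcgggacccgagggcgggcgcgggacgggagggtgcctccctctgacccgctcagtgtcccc
Ikzf1 second start: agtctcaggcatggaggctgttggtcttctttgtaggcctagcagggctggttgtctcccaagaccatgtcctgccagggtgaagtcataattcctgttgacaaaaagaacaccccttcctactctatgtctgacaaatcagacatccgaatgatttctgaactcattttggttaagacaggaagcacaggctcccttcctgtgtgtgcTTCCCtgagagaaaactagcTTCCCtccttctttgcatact
The windows differed in composition. The first was 82.0% G or C with 44 CpG and 0 matches, and the second was 47.6% G or C with 1 CpG and 2 matches on the minus strand. Among 32851 upstream windows of the same length in this table, the medians were 52.4% G or C and 6 CpG, and 56.2% held GGGAA on either strand. A match is a description of the letters, and counts at the 3′ end do not tell which start was used.

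Ikzf1 was found in every population. It held 559 UMIs in 247 wells, 88.4% of the 632 UMIs of the 3 genes, and ranked 467 by UMI count. The B lymphocytes held 73 UMIs, a level of 538 CPM (interval 421 to 676). The T lymphocytes held 116 UMIs, a level of 579 CPM (478 to 694). These lymphocyte levels were the highest of the 5 and could not be told apart, with a log2 ratio of B over T lymphocytes of -0.11 (-0.55 to 0.33). The progenitor/stem cells held 205 UMIs, a level of 246 CPM (213 to 282). The granulocytes held 96 UMIs, a level of 238 CPM (193 to 291). Granulocyte and progenitor/stem cell levels were also not told apart on the CPM scale, with a log2 ratio of -0.05 (-0.41 to 0.31). Erythroblasts had the lowest level, 69 UMIs or 103 CPM (80.5 to 131).

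Relative to the progenitor/stem cells, the log2 ratio of Ikzf1 CPM was 1.13 (0.72 to 1.52) in B lymphocytes, 1.24 (0.90 to 1.57) in T lymphocytes and -1.25 (-1.66 to -0.85) in erythroblasts. The scale mattered for these ratios. Scaled to the ERCC spike-in, control RNA added to the wells, the B lymphocyte ratio turned to -0.19 and the T lymphocyte ratio fell to 0.35. With scran size factors, which are pooled over cells, the erythroblast ratio was -0.03 and the granulocyte ratio rose to 0.86, and with TMM factors they were -0.38 and 0.72. Mouse UMIs per ERCC UMI were 7.50 in B lymphocytes, 10.1 in T lymphocytes, 9.67 in granulocytes, 17.3 in erythroblasts and 18.8 in progenitor/stem cells. The part of RNA content per cell in the Ikzf1 ratios was not tested.

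Ikzf1 was higher in T lymphocytes than in erythroblasts under all 9 scalings or well sets tried, with log2 ratios between 1.29 and 2.51. It was also higher in T lymphocytes than in granulocytes (0.41 to 1.35) and than in progenitor/stem cells (0.35 to 1.30) under all 9. In B lymphocytes it was higher than in erythroblasts (1.17 to 2.46) and than in granulocytes (0.41 to 1.32) under all 9. Granulocytes were above erythroblasts under all 9 as well (0.36 to 1.22). The sets without wells A8 and B2 or without wells B19 to B24 drop only B lymphocytes. They could not change a ratio between other populations, so all 9 are not separate checks there.

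**Figure D1:**
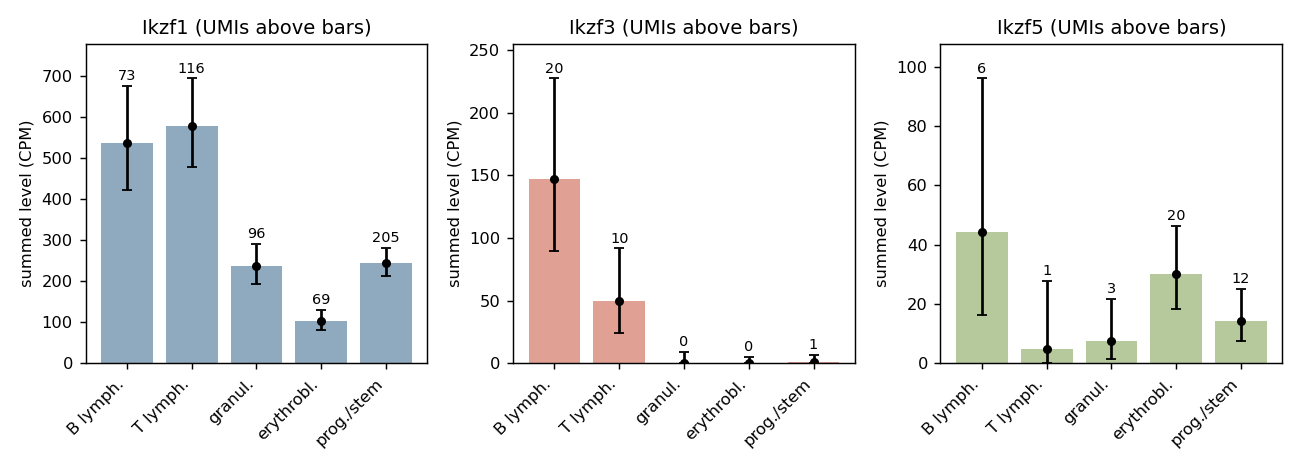
Summed level of Ikzf1, Ikzf3 and Ikzf5 (y axes, CPM, a separate scale for each gene) in the 5 populations, with exact 95% Poisson intervals for counting error as bars and the UMIs behind each value above them. On the CPM scale Ikzf1 is highest in both lymphocyte populations (with ERCC scaling the B lymphocytes fall below the progenitor/stem cells), Ikzf3 is at 0 or 1 UMI outside the lymphocytes, and the Ikzf5 intervals are wide.

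**Figure D2:**
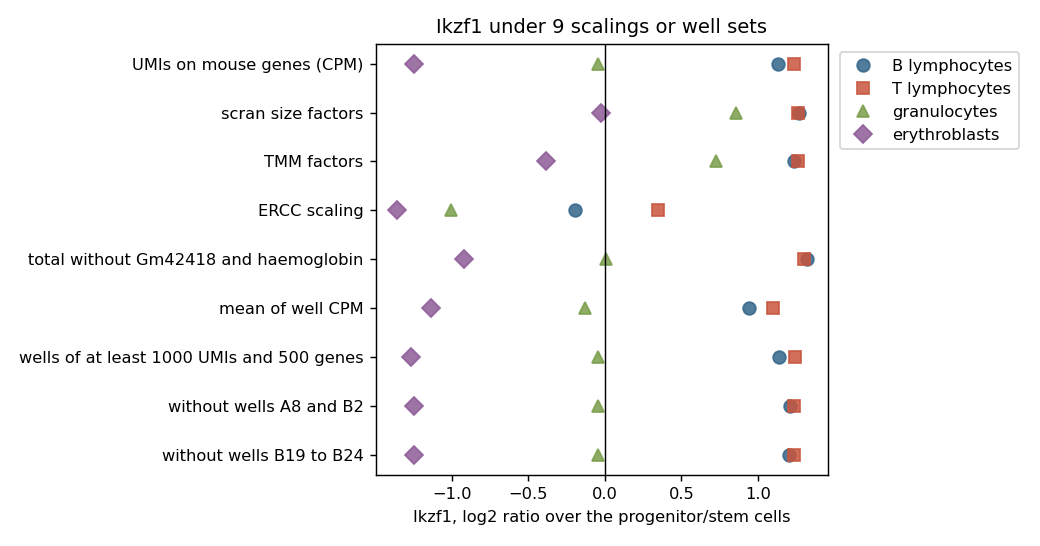
Log2 ratio of Ikzf1 over progenitor/stem cells (x axis) for 4 populations under 9 scalings or well sets (y axis). T lymphocytes stay right of 0 throughout, B lymphocytes cross it with ERCC scaling, granulocytes lie between -1.00 and 0.86, and erythroblasts lie between -1.36 and -0.03. The sets without wells A8 and B2 or without wells B19 to B24 can move only the B lymphocytes.

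Single wells showed the same order of Ikzf1 on the CPM scale once depth was made equal. At least 1 UMI was found in 30 of 44 B lymphocyte wells (68.2%, interval 52.4% to 81.4%), 37 of 43 T lymphocyte wells (86.0%, 72.1% to 94.7%) and 54 of 96 granulocyte wells (56.2%, 45.7% to 66.4%). It was found in 45 of 96 erythroblast wells (46.9%, 36.6% to 57.3%) and 81 of 95 progenitor/stem cell wells (85.3%, 76.5% to 91.7%). The unthinned share of progenitor/stem cells rested on deeper wells. After thinning each well to 2000 UMIs, the expected share was 61.6% in B lymphocytes, 66.4% in T lymphocytes, 35.9% in granulocytes, 17.3% in erythroblasts and 39.3% in progenitor/stem cells. Shallower wells were left out, 11 B lymphocytes, 1 T lymphocyte, 10 granulocytes, 1 erythroblast and 0 progenitor/stem cells. Wells differed widely within each population, from 0 to 9 UMIs in both lymphocyte populations (median 1 in B and 2 in T), 0 to 7 in granulocytes (median 1), 0 to 4 in erythroblasts (median 0) and 0 to 12 in progenitor/stem cells (median 2).

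**Figure D3:**
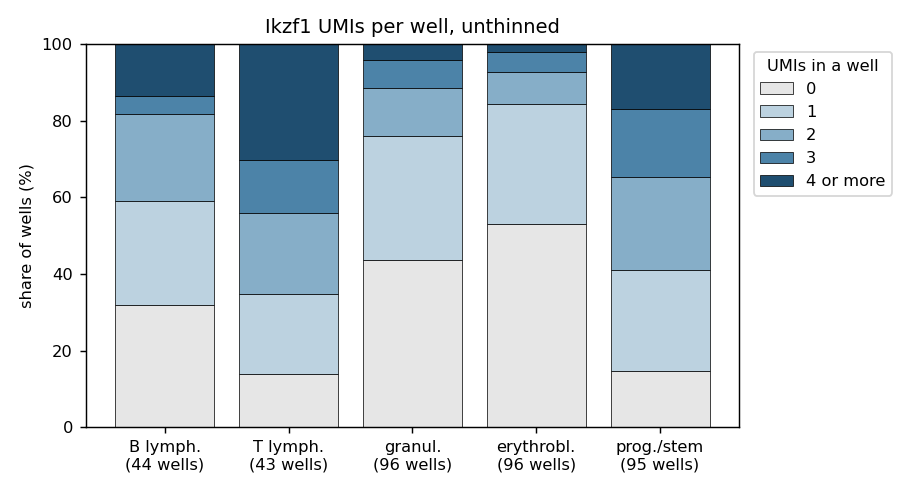
Share of wells (y axis, %) holding 0, 1, 2, 3 or at least 4 Ikzf1 UMIs in each population, without thinning. Wells with 0 UMIs are 14 of 44 B lymphocytes, 6 of 43 T lymphocytes, 42 of 96 granulocytes, 51 of 96 erythroblasts and 14 of 95 progenitor/stem cells, and depth differs between the populations.

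RNA from other wells was gauged with cell type markers. In erythroblasts, 12 markers of the other populations, with 300 to 1200 CPM in their own and Flt3 left aside, had a median of 1.06% and a highest value of 5.67% of that level. Ikzf1 in erythroblasts was at 17.9% of its T lymphocyte level, above all 12. Each marker was chosen for its own population, whereas Ikzf1 was found in every population, so these percentages are not like for like. The source of the Ikzf1 UMIs in erythroblasts was not tested.

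Ikzf3 was found almost only in lymphocytes. Of its 31 UMIs, 30 lay in B or T lymphocytes and 1 elsewhere. The B lymphocytes held 20 UMIs, a level of 147 CPM (90.0 to 227), in 12 of 44 wells. The T lymphocytes held 10 UMIs, a level of 49.9 CPM (23.9 to 91.8), in 9 of 43 wells. B lymphocytes were 2.95-fold higher than T lymphocytes, a log2 ratio of 1.56 (0.40 to 2.82), and the log2 ratio lay between 1.13 and 1.79 under the 9 scalings or well sets. The progenitor/stem cells held 1 UMI (1.20 CPM), giving log2 ratios of 6.94 (4.30 to 12.3) for B lymphocytes and 5.38 (2.57 to 10.8) for T lymphocytes over them.

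No Ikzf3 UMI was found in granulocytes or the erythroblasts, although both were sequenced more deeply in sum than either lymphocyte population. A count of 0 allows up to 3 UMIs, here 7.43 CPM in granulocytes, 4.50 CPM in erythroblasts and 3.12% of the 96 wells of each. The exact upper limits are 9.14 CPM, 5.53 CPM and 3.77% of wells. Against a floor of 3 UMIs per population, the B lymphocyte level was at least 19.8-fold higher than that of granulocytes and at least 32.7-fold higher than that of erythroblasts. For T lymphocytes these bounds were at least 6.71-fold and 11.1-fold higher. The floor leaves out the counting error of the lymphocyte UMIs, and the lower limits of the exact log2 intervals were 3.87 and 4.60 for B lymphocytes and 2.17 and 2.90 for T lymphocytes. The T lymphocyte level of Ikzf3, on 10 UMIs, was 33.9% of the B lymphocyte level. The B lymphocyte markers summed to 3.24% of their own level there, with single markers from 0% (Pax5) to 4.60% (Ighm). Each marker was chosen for its own population, so these percentages are not like for like. The source of the Ikzf3 UMIs in T lymphocytes was not tested.

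Ikzf3 was sparse within the lymphocytes too. Among the B lymphocyte wells, 7 had 1 UMI, 2 had 2 and 3 had 3, and among the T lymphocyte wells 8 had 1 and 1 had 2. Thinned to 2000 UMIs, the expected share of wells was 22.7% in B lymphocytes and 9.04% in T lymphocytes. Of the wells with Ikzf3, 11 of 12 B lymphocytes and 9 of 9 T lymphocytes also held Ikzf1. These wells were deeper than those without Ikzf3, with median UMI counts of 3438.5 against 2767.5 in B and 5674 against 4163.5 in T lymphocytes, and the part of depth in the joint finding was not tested.

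Ikzf5 had a different order of levels. It held 42 UMIs in 39 wells. The erythroblasts held 20 UMIs, a level of 30.0 CPM (18.3 to 46.3), in 18 wells. The progenitor/stem cells held 12 UMIs, a level of 14.4 CPM (7.43 to 25.1), in 12 wells. The B lymphocytes held 6 UMIs in 5 wells, a level of 44.2 CPM (16.2 to 96.2), the granulocytes 3 UMIs (7.43 CPM, 1.53 to 21.7) and the T lymphocytes 1 UMI (4.99 CPM, 0.13 to 27.8). In the order B lymphocytes, erythroblasts, progenitor/stem cells, granulocytes and T lymphocytes, no neighbours could be told apart. Erythroblasts over progenitor/stem cells gave a log2 ratio of 1.06 (-0.04 to 2.23), and with scran size factors 2.64. Some farther pairs had intervals that left out no difference, the granulocytes under the erythroblasts with a log2 ratio of -2.01 (-4.41 to -0.26) and the B lymphocytes over granulocytes (2.57, 0.34 to 5.20) and over T lymphocytes (3.15, 0.10 to 8.67). The B lymphocyte ratios rest on 6 UMIs, 2 of them in wells B19 to B24, and no interval was computed without those wells. The intervals are not adjusted for the number of pairs read. The order of B lymphocytes and erythroblasts turned with the scale, with B lymphocytes higher in 5 of 9 settings and erythroblasts higher with scran, TMM or ERCC scaling and, at 30.9 CPM in both, in the mean of well CPM.

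The make-up of the family within a population does not depend on how populations are scaled. Ikzf1 held the largest share of the 3 genes' UMIs in all 5, from 73.7% in B lymphocytes to 97.0% in granulocytes. Ikzf3 held 20.2% (12.8% to 29.5%) in B lymphocytes, 7.87% (3.84% to 14.0%) in T lymphocytes and 0.459% (0.01% to 2.53%) in progenitor/stem cells. Ikzf5 held 22.5% (14.3% to 32.6%) in erythroblasts, 6.06% (2.26% to 12.7%) in B lymphocytes, 5.50% (2.88% to 9.42%) in progenitor/stem cells, 3.03% (0.63% to 8.60%) in granulocytes and 0.787% (0.02% to 4.31%) in T lymphocytes.

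Ratios between 2 members are free of the scaling too. For every 100 Ikzf1 UMIs there were 27.4 Ikzf3 UMIs in B lymphocytes and 8.62 in T lymphocytes, an odds ratio of 3.16 (1.32 to 8.01). For every 100 Ikzf1 UMIs there were 29.0 Ikzf5 UMIs in erythroblasts and 5.85 in progenitor/stem cells, an odds ratio of 4.92 (2.16 to 11.7). Odds ratios of erythroblasts over the other populations were 3.50 (1.26 to 11.3) for B lymphocytes, 9.18 (2.57 to 50.1) for granulocytes and 33.2 (5.09 to 1405) for T lymphocytes, which had 1 Ikzf5 UMI. These intervals are not adjusted for the 7 ratios computed, which were not planned in advance. Each ratio puts first the population with the larger share of the member, so it largely restates the make-up. Ikzf1 was also found in 7 of 18 erythroblast wells with Ikzf5, beside 45 of all 96, and in 11 of 12 progenitor/stem cell wells with Ikzf5, beside 81 of all 95.

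**Figure D4:**
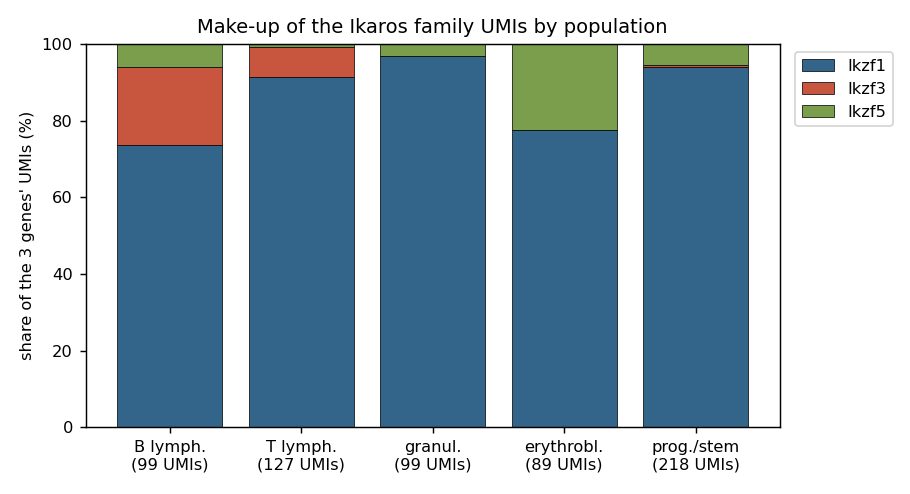
Share of the 3 genes' summed UMIs (y axis, %) held by Ikzf1, Ikzf3 and Ikzf5 in each population, with the summed UMIs under each bar. Ikzf3 takes 20.2% in B lymphocytes and Ikzf5 takes 22.5% in erythroblasts, and Ikzf1 takes at least 73.7% in all 5 populations.

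The members were next read against all genes whose UMIs in the pair of populations summed to at least 20. Genes were called where CPM differed at least 2-fold, with sums under 3 UMIs set to 3. In B lymphocytes over progenitor/stem cells, 7.51% of 7297 genes were called higher and 19.3% lower, and Ikzf1 was higher. Ikzf3 was higher too, but it reached 20 UMIs only through B lymphocytes, where it is high, so this call and the one in T over B lymphocytes support nothing. In T lymphocytes over progenitor/stem cells, 9.17% of 7565 genes were called higher and 19.4% lower, and Ikzf1, the member that could be compared, was higher. In granulocytes over progenitor/stem cells, 11.7% of 7826 genes were called higher and 48.2% lower, and Ikzf1 was neither, at a log2 ratio of -0.05 beside a median of -0.95 over all genes. In erythroblasts over progenitor/stem cells, 12.1% of 8076 genes were called higher and 49.4% lower. There Ikzf5, which reached 20 UMIs in the erythroblasts alone, was called higher with an interval that includes no difference, and Ikzf1 was called lower, at -1.25 beside a median of -0.98 over all genes. In T over B lymphocytes, 20.1% of 3064 genes were called higher and 9.86% lower, and Ikzf3 was lower while Ikzf1 was neither. The 4 comparisons over progenitor/stem cells share those cells.

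The centre of these comparisons moved with the scaling. With scran size factors the median over all genes was -0.05 in place of -0.98 for erythroblasts, -0.19 in place of -0.95 for granulocytes, -0.04 in place of -0.32 for B lymphocytes and -0.12 in place of -0.26 for T lymphocytes, each over progenitor/stem cells, and 0.11 in place of 0.27 for T over B lymphocytes. Higher genes then made up 47.2% of the calls in place of 19.6% for erythroblasts, 44.8% in place of 19.5% for granulocytes, 51.0% in place of 28.0% for B lymphocytes and 43.0% in place of 32.1% for T lymphocytes. Ikzf1 was then not called in erythroblasts, and the other calls of members were the same.

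NuRD is the remodelling and deacetylase complex that Ikaros and Aiolos recruit. Counts of 12 of its 13 listed genes were used, and all 12 could be compared everywhere. In T lymphocytes over progenitor/stem cells, 0 of 12 were called (median log2 ratio -0.14, against -0.26 over all genes), or Chd3 alone as higher with scran, where 9.17% of all genes were higher and 19.4% lower on the CPM scale. In B lymphocytes, 0 were higher and 3 lower, Chd3, Mta1 and Rbbp7 (median -0.51, against -0.32), beside 19.3% of all genes lower, and with scran Rbbp7 was not called. In granulocytes, 0 were higher and 8 lower (median -1.51, against -0.95), beside 48.2% of all genes lower, or 2 higher and 5 lower with scran. In erythroblasts, Mbd2 was higher and 6 were lower (median -1.03, against -0.98), beside 49.4% of all genes lower and 12.1% higher, or 3 higher and 1 lower with scran. With scran, 23.1% of all genes were higher and 28.5% lower in granulocytes, and 27.1% and 30.3% in erythroblasts. The scran shares were 11.8% and 15.6% in T lymphocytes and 12.3% and 11.8% in B lymphocytes. In T over B lymphocytes 3 were higher, Chd3, Mta1 and Gatad2b (median 0.40, against 0.27), beside 20.1% of all genes higher. In B lymphocytes and in T over B, every NuRD gene called reached 20 UMIs only through the population where it is high. So did Chd3, Hdac2, Mta1, Mta3 and Mbd3 in granulocytes and Chd3 in erythroblasts. These calls are not read as results.

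The most counted subunit was Chd4, the remodelling ATPase, with 590 UMIs and levels of 395 CPM in progenitor/stem cells, 334 in T lymphocytes, 272 in B lymphocytes, 173 in granulocytes and 129 in erythroblasts. Mbd2, which binds methylated DNA, was highest in erythroblasts at 324 CPM, against 111 in progenitor/stem cells. Rbbp7, a histone-binding subunit, stood at 295 CPM in progenitor/stem cells and at 57.0 in granulocytes. Mta2, a scaffold subunit, had 161 CPM in progenitor/stem cells and 160 in erythroblasts, and the deacetylase Hdac2 had 164 and 54.0. Chd3, the other ATPase, had 180 CPM in T lymphocytes (36 UMIs) and 22.1 in B lymphocytes (3 UMIs). Chd3 was named after its values were seen, and its call in T over B lymphocytes is among those not read as results.

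Other corepressors of the family were compared in the same way. Of Sin3a, Sin3b, Ctbp1 and Ctbp2, 0 were called higher over progenitor/stem cells in any population, with 1 of 4 lower in B lymphocytes, 1 in T lymphocytes, 2 in granulocytes and 1 in erythroblasts. Beside these counts and those of the ligase genes, 19.3%, 19.4%, 48.2% and 49.4% of all genes were lower in the same order. Ctbp2 was the lower gene in B lymphocytes, T lymphocytes and erythroblasts, and Sin3a and Ctbp1 were lower in granulocytes. These lower calls of Ctbp2 and Ctbp1 reached the minimum of UMIs only through the progenitor/stem cells, where both genes are high. They are not read as results. With scran size factors Ctbp1 was higher in B lymphocytes and in erythroblasts, beside 12.3% and 27.1% of all genes. With scran 0 were lower in B lymphocytes and in granulocytes, beside 11.8% and 28.5% of all genes. Ctbp2, a corepressor that binds short peptide motifs, had 47.9 CPM in progenitor/stem cells and 0 UMIs in T lymphocytes and the erythroblasts. Cereblon (Crbn) is the substrate receptor of a ubiquitin ligase through which thalidomide-like drugs degrade Ikaros and Aiolos in human cells. Crbn levels were 58.9 CPM in B lymphocytes, 49.9 in T lymphocytes, 35.9 in progenitor/stem cells, 28.5 in erythroblasts and 24.8 in granulocytes, and it was called in no comparison. Of the 5 ligase genes, 0 were higher over progenitor/stem cells in any population, and Ddb1 (B lymphocytes and granulocytes) and Cul4b (erythroblasts) were lower. These lower calls of Ddb1 and Cul4b also reached the minimum of UMIs only through the progenitor/stem cells and are not read as results. With scran size factors Ddb1 was no longer called in B lymphocytes and Cul4a was higher in erythroblasts, beside 27.1% of all genes. Between T and B lymphocytes, 0 of 2 comparable corepressors were called, and of 3 ligase genes Cul4b was higher in T. Beside these counts, 20.1% of all genes were higher and 9.86% lower. Cul4b rested on 15 UMIs in T and 5 in B lymphocytes, and its log2 ratio of 1.02 (-0.51 to 2.84) had an interval that includes no difference.

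Genes known as targets of Ikaros proteins in lymphocyte development are given as levels. Counts of 11 of the 12 listed were used. Rag1, a recombinase subunit, had 655 CPM in B lymphocytes and 0 UMIs in T lymphocytes. Il7r, the interleukin-7 receptor, had 376 CPM in B and 245 in T lymphocytes. Flt3, a cytokine receptor of early progenitors, had 440 CPM in progenitor/stem cells, and Dntt, which adds bases at receptor gene joints, had 389. Cd8a and Cd4, the coreceptors of T cells, had 539 and 264 CPM in T lymphocytes. In every comparison, the listed genes called on the CPM scale reached 20 UMIs only through the population where they are high, so their calls are not read as results. Cd8a, Cd4 and Flt3 also serve here as markers of their populations.

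Genes whose levels followed Ikzf1 most closely were sought among 6316 others with at least 50 UMIs, over 5 populations. Likeness was the distance between the 5 populations' shares of summed CPM, 0 for the same shares and 1 for no overlap, with a median of 0.302. The nearest were Polb (0.0385), a DNA repair polymerase, Malt1 (0.0403), a paracaspase of antigen receptor signalling, 1810026B05Rik (0.0415), Gm27694 (0.0427) and Csk (0.0435), a kinase that restrains Src family kinases. Polb rested on 54 UMIs. Ikzf3 and Ikzf5 had too few UMIs for this comparison.

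Index sorting recorded each cell's fluorescence, and wells were split at the median of a gating marker or of forward scatter within a population. Of 11 such splits for members with at least 20 UMIs, 1 had an interval that left out no difference. Ikzf1 in progenitor/stem cells stood at 186 CPM (146 to 232) in the 47 wells above the c-Kit median and at 305 CPM (254 to 362) in the 48 others, a log2 ratio of -0.72 (-1.14 to -0.30). A UMI was found in 38 and 43 of these wells, and their median depths were 8223 and 7889.5 UMIs. The ratio was -0.68 with scran size factors and -0.57 with ERCC scaling. The interval is not adjusted for the 11 splits and does not cover the spread between cells.

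On the CPM scale, the intervals of the other 10 splits included no difference. Ikzf1 in progenitor/stem cells gave 0.37 (-0.04 to 0.79) by Sca-1 and -0.32 (-0.73 to 0.09) by forward scatter. In erythroblasts, Ikzf1 gave 0.77 (-0.02 to 1.61) and Ikzf5 gave 0.26 (-1.17 to 1.83) by CD44, and Ikzf1 gave -0.13 (-0.77 to 0.48) by Gr1 in granulocytes. With ERCC scaling these were 1.35, 0.84 and -0.72, with no interval computed. Ikzf1 gave 0.21 (-0.34 to 0.76) by CD3 in T lymphocytes. In B lymphocytes, Ikzf1 gave -0.44 (-1.15 to 0.26) by forward scatter and 0.01 (-0.69 to 0.71) by B220. Ikzf3 had 6 UMIs in B lymphocytes with more forward scatter and 14 in the others (-1.46, -3.13 to 0.01), and 10 on each side of the B220 median (-0.11, -1.53 to 1.31).

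**Figure D5:**
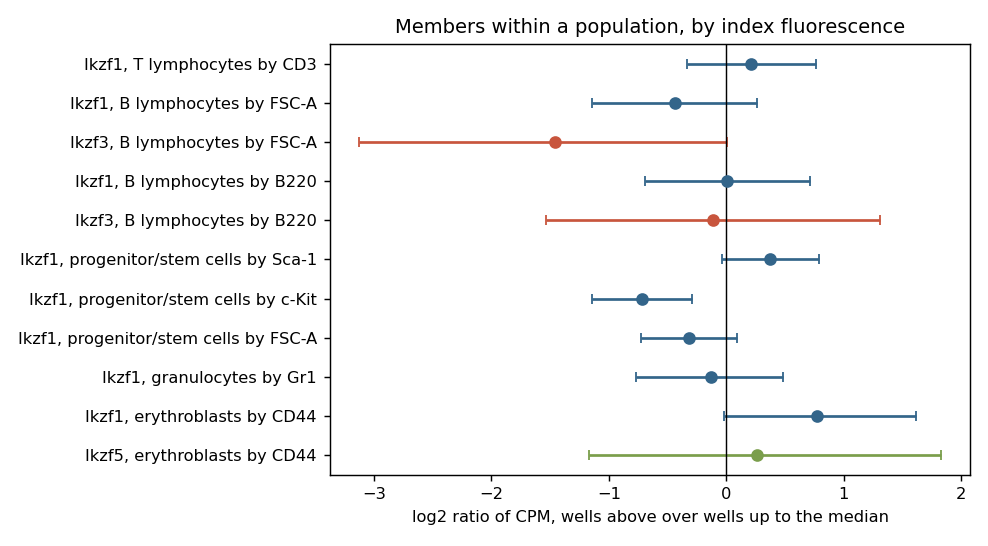
Log2 ratio of CPM between wells above and wells up to the median of an index measure (x axis) for members with at least 20 UMIs in the population (y axis), with exact 95% intervals for counting error. The interval of Ikzf1 by c-Kit in progenitor/stem cells lies left of 0, and the other 10 include 0.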

How the data were processed

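Single cells of 5 populations of 1 mouse were read by CEL-seq2. The deposited values are raw UMI counts in whole numbers, made by the authors with scPipe, which assigns aligned reads to exons and collapses UMIs. For the aligner version, genome build, annotation and strand setting, the entry is "not given in the sources used here". Labels name 2 conflicting layouts of read 1, and counts were used as deposited. Wells were grouped by the labelled cell type, and 9 columns of no sample were not used. Gene symbols came from GENCODE M21 (74 mouse gene IDs without a symbol).

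UMIs were summed per population and scaled as CPM to UMIs on mouse genes, with no filter on wells. Intervals were 95% exact Poisson (levels), binomial (shares) or conditional (ratios). A sum of 0 was compared at a floor of 3 UMIs, and sums of 1 to 3 as ratios with intervals. In the 2-fold calls sums under 3 were set to 3. Thinned shares are hypergeometric expectations at 2000 UMIs. No UMI intervals cover variation between cells. With 1 sample a group no test was made. Ratio intervals and 2-fold calls were tested on simulated Poisson counts for T lymphocytes and progenitor/stem cells, without spread between cells. Thinning was tested on simulated draws, and the other steps were not tested in this way. Python 3.11.15, numpy 2.4.6, pandas 2.3.3, scipy 1.17.1, matplotlib 3.10.9, and R 4.3.3 with scran 1.30.0 and edgeR 4.0.16 (TMM factors only) were used.

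The family members, gene lists, markers and wells left out were chosen with earlier results of these data known. Named genes were the members, the 5 genes nearest to a member with at least 50 UMIs, up to 5 genes of a list by UMIs, and the genes called in a list, which were named after their values were seen, as was Chd3. Alternatives were other scalings, well sets, filters and folds. Those of the fluorescence splits were chosen after seeing the data.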

Additional observations from a re-analysis of the deposited data

How the results depend on the processing

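Of 104 values of the 13 log2 ratios under 8 alternative scalings or well sets, 96 stayed within counting error and 8 moved further. The sets without wells A8 and B2 or without wells B19 to B24 drop only B lymphocytes. Ratios without B lymphocytes could not change there, and those values are counted among the 96. In all, 6 changed sign, 3 of them within counting error, and 1 of the 6 (Ikzf1 in B lymphocytes with ERCC scaling) had an interval that left out no difference before. With ERCC scaling, Ikzf1 over the progenitor/stem cells was -0.19 in the B lymphocytes (reversed), 0.35 in the T lymphocytes and -1.00 in the granulocytes. With scran size factors it was 0.86 in the granulocytes and -0.026 in the erythroblasts, and Ikzf5 in the erythroblasts was 2.64. With TMM factors Ikzf1 was 0.72 in the granulocytes and -0.38 in the erythroblasts. The causes of these moves were not tested. All 26 make-up values and all 33 values of the fluorescence splits stayed within their intervals. Shares of wells with a UMI depend on depth, and of 13 thinned shares 8 stayed within their intervals at 1000 UMIs and 7 without thinning.

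Counts of genes called higher and lower were 548 and 1410 in B lymphocytes, 694 and 1466 in T lymphocytes, 913 and 3769 in granulocytes and 974 and 3989 in erythroblasts, each over progenitor/stem cells, and 616 and 302 in T over B lymphocytes. In all, 14 of 40 alternative counts were within 1.5 times these. Requiring at least 50 UMIs, and so testing fewer genes, gave 249 higher in B, 339 higher and 723 lower in T, 607 and 1894 in granulocytes, 1960 lower in erythroblasts, and 201 and 103 in T over B. With 1 UMI as the minimum, more genes were tested, and 8983 were higher in B, 8381 in T and 7025 in granulocytes, with 1201 and 912 in T over B. A 3-fold threshold gave 258 and 446 in B, 332 and 512 in T, 582 higher in granulocytes, and 297 and 177 in T over B. With scran size factors the counts were 898 and 862 in B, 1805 and 2228 in granulocytes and 2190 and 2449 in erythroblasts. No paired analysis was possible because all cells came from 1 mouse and no result comes from a test. Depth limits Ikzf3 and Ikzf5, with 31 and 42 UMIs in all, where 1 UMI is worth 1.20 CPM in the progenitor/stem cells and 7.36 CPM in the B lymphocytes.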

Other observations

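Wells B19 to B24 of the B lymphocytes, chosen with earlier results of these data known, held 7 UMIs of Ikzf1, 0 of Ikzf3 and 2 of Ikzf5 among 18863 UMIs on mouse genes. Without them the B lymphocyte level was 564 CPM for Ikzf1, 171 for Ikzf3 and 34.2 for Ikzf5.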
